A study of Mus musculus with 9 samples.

Results

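The regions described here are the open chromatin peaks that flank the Il21 gene on mouse chromosome 3. A peak was a member if it lay on chromosome 3, within 10 Mb of the Il21 span and more than 100 kb away from both Il21 and its neighbour Il2. On the mm9 build Il21 runs from 37121681 to 37131559 and Il2 from 37019642 to 37024877. The rule used position only and no measured value. It took 520 peaks of the 115727 listed, or 0.449%, between chr3:27127260 and chr3:44316483. Of these, 310 lay on the low-coordinate side of Il21 and 210 on the high-coordinate side. Another 50 peaks on chromosome 3 lay inside the excluded 100 kb. The question was whether accessibility of the flanks differed by genotype.

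The assay was ATAC-seq. Its Tn5 transposase cuts open DNA and leaves sequencing adapters at the cuts, so that reads pile up where chromatin is accessible. The cells were naive CD4+ T cells, taken directly from C57BL/6 mice, purified with a commercial kit for naive cells and left untreated. The 3 genotypes had 3 libraries each: Stat6_KO, which lacks Stat6, Il21e_KO, which carries the allele labelled Il21e KO, and WT. The labels also call the Il21e_KO libraries IL21KO and do not say which DNA the allele removes, on which cells either allele was made or how often the lines were backcrossed. They do not say whether the 3 libraries of a genotype came from separate mice, so every p-value measures the spread between these libraries. Since each library pools many cells, fewer cells with a site open and less opening per cell cannot be told apart.

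Il2 and Il21 are neighbouring cytokine genes. IL-2 is the growth and survival factor of activated T cells, and IL-21 is made mainly by follicular helper and Th17 cells and drives B cells toward antibody secretion. Both cytokines signal through receptors that share the common gamma chain. IL-4 and IL-13 act on their target genes through the transcription factor STAT6. An edited allele is inherited together with the DNA around it, and distal regulatory elements can act on genes far from them, which is why the region around a target gene is examined apart from the gene itself. In naive T cells most open chromatin lies at active promoters and at enhancers, the regulatory elements that lie away from start sites.

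Promoter sequences are shown for the start-site members on which the results below turn and which have a single RefSeq start, Nudt6, Phc3 and Mynn, and for Fgf2, the tested member nearest to Il21. Each is the 250 bases before the RefSeq start, 5′ to 3′ on the gene's strand, from the RefSeq promoter table of build GRCm38.p6. Those positions are on another build than the peaks and were not converted. Nudt6, a nudix hydrolase gene transcribed from the strand opposite to Fgf2, is on the minus strand at chr3:37419597-37419846. Fgf2, a fibroblast growth factor, is on the plus strand at chr3:37348403-37348652. Phc3, a subunit of a Polycomb repressive complex, is on the minus strand at chr3:30969416-30969665. Mynn, a BTB and zinc finger protein, is on the plus strand at chr3:30601837-30602086. Capitals mark matches to TTCNNNNGAA, a spacing favoured by STAT6, to TTCNNNGAA, the spacing of other STAT factors, or to CCGGAA, a core of ETS factors, each searched on both strands.

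Nudt6: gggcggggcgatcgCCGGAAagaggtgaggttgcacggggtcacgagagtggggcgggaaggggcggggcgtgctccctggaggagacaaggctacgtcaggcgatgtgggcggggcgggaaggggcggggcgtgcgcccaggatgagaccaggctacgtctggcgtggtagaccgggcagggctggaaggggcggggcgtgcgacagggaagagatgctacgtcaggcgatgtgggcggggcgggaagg
Fgf2: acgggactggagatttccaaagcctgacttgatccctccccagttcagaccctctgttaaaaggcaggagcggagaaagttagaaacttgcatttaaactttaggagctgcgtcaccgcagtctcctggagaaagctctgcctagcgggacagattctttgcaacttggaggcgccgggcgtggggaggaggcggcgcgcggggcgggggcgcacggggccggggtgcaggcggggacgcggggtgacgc
Phc3: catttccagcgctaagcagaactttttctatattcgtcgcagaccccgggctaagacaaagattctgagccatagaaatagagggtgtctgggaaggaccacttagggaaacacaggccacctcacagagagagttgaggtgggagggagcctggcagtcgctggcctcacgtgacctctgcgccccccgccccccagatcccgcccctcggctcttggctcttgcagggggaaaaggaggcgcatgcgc
Mynn: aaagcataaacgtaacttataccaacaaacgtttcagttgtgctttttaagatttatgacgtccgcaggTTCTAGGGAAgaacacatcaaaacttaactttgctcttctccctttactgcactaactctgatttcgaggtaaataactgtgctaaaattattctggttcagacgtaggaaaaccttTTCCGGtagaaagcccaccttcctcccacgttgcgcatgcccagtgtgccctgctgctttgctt

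The GC content was 71.6% for Nudt6, 62.4% for Fgf2, 59.2% for Phc3 and 42.4% for Mynn. Nudt6 had 1 CCGGAA on its own strand. Mynn had 1 TTCNNNNGAA and, on the opposite strand, 1 CCGGAA. Fgf2 and Phc3 had no match, and none of the 4 held TTCNNNGAA. Of all 32851 promoters of the same length in the table, 5.85% held TTCNNNNGAA, 7.02% TTCNNNGAA and 12% CCGGAA. The 59 members at a transcription start site (TSS) belonged to 53 genes, of which 41 were found in the table with 50 promoters. Among those 50 promoters, 4.0% held TTCNNNNGAA, 4.0% TTCNNNGAA and 22.0% CCGGAA. Of the 41 genes, 35 had a single start and the others entered with more than 1. The 32851 promoters were not chosen by openness, whereas the 50 belong to genes with a listed TSS peak, so the sets are unlike. The difference between their shares was not tested. A match describes the letters of the window and is not evidence of binding.

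Members lay mostly between genes and in introns. Of the 520, 45.2% were intergenic, against 36.0% of all listed peaks, 30.0% were in introns, against 31.0%, and 11.35% were at a TSS, against 12.6%. The table assigned 285 members to 68 genes. The median member had a length of 405.5 bases and a mean level of 2.38 CPM (the reads in a peak scaled to a total of 1000000 for the library's peaks), against 433.0 bases and 3.34 CPM over all listed peaks. Members came in blocks separated by long stretches with few peaks. The 1 Mb bin that contains Il21, from 37 to 38 Mb, held 78 members, whereas the bins that start at 29, 39, 42 and 43 Mb held 1 member each.

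The 5 highest members were all at start sites. The TSS peak of Tnik, a kinase of the Wnt and JNK pathways, averaged 80.7 CPM over the 9 libraries, or 26.2 CPM per kb of peak. The TSS peak of 4932438A13Rik, the closest tested member on the low side at 358.6 kb from Il21, averaged 75.75 CPM or 26.6 CPM per kb. Those of Larp1b, an RNA-binding protein, Dcun1d1, a factor that attaches NEDD8 to cullins, and Skil, a Smad co-repressor of TGF-beta signalling, averaged 67.75, 59.3 and 50.0 CPM, or 28.1, 32.95 and 20.7 CPM per kb. Per kb, Dcun1d1 was the highest and Skil the lowest of these 5. The levels along the chromosome are shown for each genotype in the plot of mean CPM against distance.

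**Figure D1:**
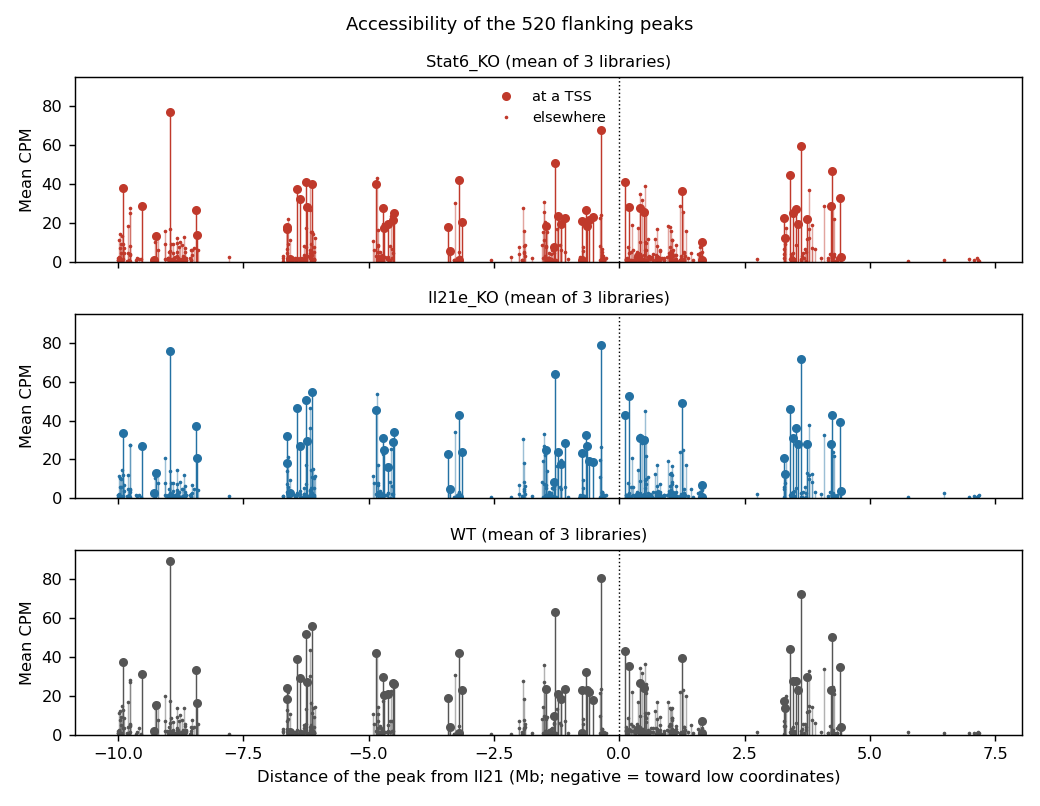
Mean CPM of the 520 flanking peaks (vertical axis) against their distance from Il21 in Mb (horizontal axis), with a panel for each genotype, large points for TSS peaks and small points for the others. Tnik, with a mean of 80.7 CPM over the 9 libraries, is the tallest of the points below -5 Mb in all 3 panels, and the blocks of peaks lie at the same distances.

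Depth ranged from 1049460 to 1802405 reads in peaks per library, so that 1 read was worth between 0.555 and 0.953 CPM and a count of 0 (which allows up to 3 reads) allowed between 1.66 and 2.86 CPM, for counting error only. Il21e_KO library 1, the shallowest, stood apart: 51.7% of its flank reads lay at TSS members, against 35.4% to 42.6% in the other 8 libraries, and 137 members had no read in it, against 23 to 62. Over all listed peaks its TSS share was 42.7%, against 31.6% to 36.4%. Per gene with a listed TSS peak, markers of the labelled cell type had 24.7 to 33.45 CPM over the libraries (10 of 10 naive CD4 T cell genes). The markers of other cell types had 30.0 to 40.5 CPM (1 of 2 CD8 T cell genes, without Cd8a), 1.35 to 5.80 CPM (5 of 5 B cell genes), 20.2 to 28.4 CPM (2 of 6 myeloid genes), 5.08 to 9.99 CPM (3 of 4 NK cell genes) and 14.2 to 23.9 CPM (1 of 3 erythroid genes). Myeloid Lyz2, Csf1r and Adgre1, NK cell Klrb1c, and erythroid Hbb-b1 and Klf1 had no listed TSS peak. Emr1 is an older symbol of Adgre1, so the 6 myeloid entries count that gene again. The part of other cells in the results was not tested. The peaks of the targeted genes did not check the labels. The 3 Stat6 peaks summed to 84.2 to 90.35 CPM in Stat6_KO, 77.7 to 84.4 CPM in Il21e_KO and 79.97 to 96.1 CPM in WT, and the 6 Il21 peaks to 5.30 to 8.52 CPM in Stat6_KO, 5.72 to 7.56 CPM in Il21e_KO and 4.28 to 5.16 CPM in WT.

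The summed accessibility of the flank differed little between genotypes. Summed over all 520 members, accessibility was 4023, 3986 and 4018 CPM in Stat6_KO, 4083, 4060 and 4029 CPM in Il21e_KO, and 3977, 4062 and 3952 CPM in WT. Values of both knockouts overlapped those of WT, while every Il21e_KO library was above every Stat6_KO library. The group means were 4009 ± 20.2 CPM in Stat6_KO, 4057 ± 27.4 CPM in Il21e_KO and 3997 ± 57.4 CPM in WT (SD, n = 3 each). Stat6_KO differed from WT by 11.8 CPM or 0.294% (exact 2-sided permutation test, p = 0.8). Il21e_KO differed from WT by 60.2 CPM or 1.51% (exact 2-sided permutation test, p = 0.3). Stat6_KO differed from Il21e_KO by -48.4 CPM or -1.19% (exact 2-sided permutation test, p = 0.1, the smallest p that 3 against 3 libraries allow).

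The sign of each difference turned under at least 1 alternative. With the mean of log2(CPM + 1) per member in place of the sum, Il21e_KO differed from WT by -0.051 and Stat6_KO from Il21e_KO by 0.18. With TMM scaling (trimmed mean of M-values), the summed difference of Stat6_KO from WT was -107.2 CPM, and over the 186 members that passed a filter on low values it was -103.3 CPM.

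The split of reads between start sites and other members varied more between libraries than the sum of the flank did. At the 59 TSS members the sums were 1489 ± 56.2 CPM in Stat6_KO, 1713 ± 346.1 CPM in Il21e_KO and 1634 ± 131.0 CPM in WT (SD, n = 3 each). At the 461 other members they were 2519 ± 70.04 CPM in Stat6_KO, 2344 ± 324.5 CPM in Il21e_KO and 2363 ± 92.9 CPM in WT. In none of the 3 comparisons did TSS or other members separate the groups (exact 2-sided permutation tests, p between 0.2 and 1.0). The 334 members below the filter on low values summed to 687.6 CPM in Stat6_KO and 572.5 CPM in WT, a ratio of 1.20, against a ratio of 1.17 over all 67440 listed peaks below that filter.

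**Figure D2:**
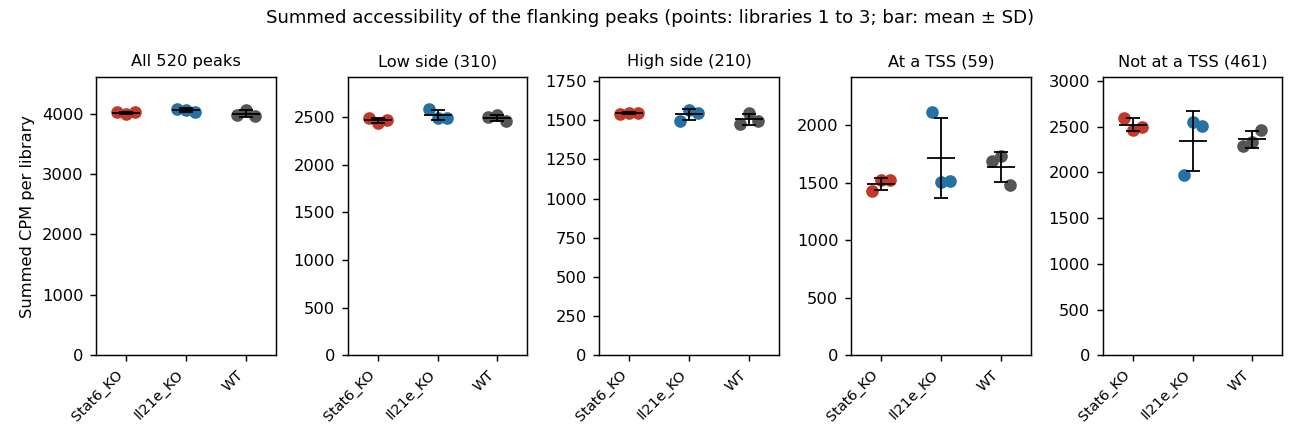
Summed CPM per library (vertical axis, from 0) for all members, each side of Il21, TSS members and the others, in Stat6_KO, Il21e_KO and WT, with points for libraries 1 to 3 and a bar at the mean ± SD. The sums over all 520 peaks lie between 3952 and 4083 CPM in all 9 libraries, while Il21e_KO library 1 is the highest at TSS members and the lowest at the others.

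The sides of Il21 are described by their sums, since an exact test of 3 libraries against 3 cannot give a p below 0.1. The low side summed to 2463 ± 24.6 CPM in Stat6_KO, 2520 ± 56.5 CPM in Il21e_KO and 2491 ± 31.5 CPM in WT (SD, n = 3 each). The high side summed to 1545 ± 5.33 CPM in Stat6_KO, 1537 ± 36.1 CPM in Il21e_KO and 1506 ± 35.7 CPM in WT. Of the 6 side comparisons only that of Stat6_KO with Il21e_KO on the low side, a difference of -2.25%, had groups that did not overlap (exact 2-sided permutation test, p = 0.1). These groups nearly touched, at 2483 CPM in the highest Stat6_KO library and 2484 CPM in the lowest Il21e_KO library. With 1 library left out, this difference ran from -74.6 to -24.0 CPM. Without Il21e_KO library 1, the low-side difference of Il21e_KO from WT was -3.53 CPM, against 29.0 CPM with it, so its sign rested on that library.

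The same limit holds for the rings of distance around Il21. The 116 members under 1 Mb from Il21 summed to 860.7 ± 24.3 CPM in Stat6_KO, 875.0 ± 16.8 CPM in Il21e_KO and 866.4 ± 29.2 CPM in WT (SD, n = 3 each), and all 3 groups overlapped. The 121 members from 1 to 2.5 Mb summed to 794.3 to 830.0 CPM in Stat6_KO, 735.6 to 854.5 CPM in Il21e_KO and 739.2 to 784.0 CPM in WT. There every Stat6_KO library was above every WT library, a difference of 5.60% (exact 2-sided permutation test, p = 0.1). This difference came down to -0.37 CPM over the ring's members that passed the filter, and its 78 members below the filter summed to 167.0 ± 6.00 CPM in Stat6_KO and 123.8 ± 29.95 CPM in WT. From 2.5 to 5 Mb the 115 members summed to 1149 ± 3.82 CPM in Stat6_KO, 1199 ± 101.3 CPM in Il21e_KO and 1147 ± 53.6 CPM in WT. From 5 to 10 Mb the 168 members summed to 1192 ± 44.7 CPM in Stat6_KO, 1194 ± 25.9 CPM in Il21e_KO and 1220 ± 13.5 CPM in WT. Over the 18 side and ring comparisons the lowest Benjamini-Hochberg adjusted p of the exact permutation tests was 0.9.

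At 1 Mb resolution 12 bins held at least 10 members. In those bins the ratio of Stat6_KO to WT lay between 0.938 and 1.156, that of Il21e_KO to WT between 0.9045 and 1.098, and that of Stat6_KO to Il21e_KO between 0.907 and 1.08. The bin from 38 to 39 Mb, which holds Ankrd50, a protein of endosomal recycling, and Fat4, a giant protocadherin, summed to 332.4 to 343.1 CPM in Stat6_KO, against 272.3 to 303.7 CPM in WT. Of the 12 bins, Stat6_KO and WT failed to overlap in this 1. Over all 1743 bins of the genome with at least 10 peaks, 15% did not overlap between Stat6_KO and WT. The 17 tested members of that bin had a Stat6_KO to WT ratio of 1.08 and the 45 members below the filter a ratio of 1.39. Il21e_KO and WT overlapped in all 12 bins, against a genome share of 8.32% that did not. Stat6_KO and Il21e_KO did not overlap in 1 bin, from 28 to 29 Mb, with 346.8 to 355.2 CPM in Stat6_KO and 331.2 to 345.3 CPM in Il21e_KO, against a genome share of 12%.

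**Figure D3:**
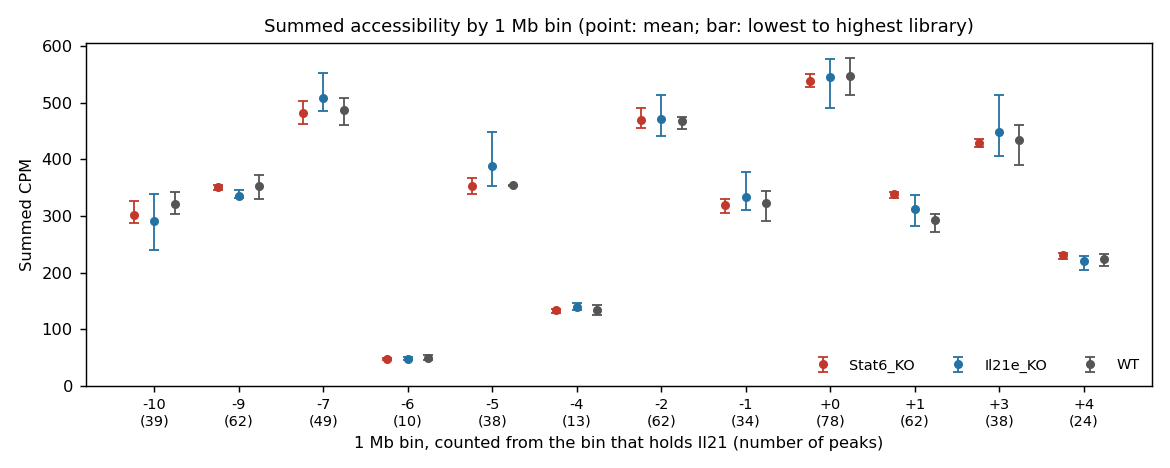
Summed CPM (vertical axis) in each 1 Mb bin with at least 10 members, by distance of the bin in Mb from the bin that holds Il21 (horizontal axis, number of peaks in brackets), with points at group means and bars from the lowest to the highest library. Only in the bin at +1 do the Stat6_KO bars, from 332.4 to 343.1 CPM, clear the WT bars, from 272.3 to 303.7 CPM.

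Peak by peak, 186 members passed the filter on low values and were tested, 119 on the low side and 67 on the high side, or 35.8% of the members against 41.7% of all listed peaks. The test was limma-trend on log2(CPM + 1) over all 48287 peaks that passed, with a false discovery rate (FDR) threshold of 0.05. No member passed it in any comparison. The lowest adjusted p of a member by limma-trend was 1.0 in Stat6_KO against WT, 0.9998 in Il21e_KO against WT and 0.78 in Stat6_KO against Il21e_KO. Over all alternative fits the lowest was 0.198 and 0.483 in these comparisons with WT, both without Il21e_KO library 1, and 0.369 in Stat6_KO against Il21e_KO, without Il21e_KO library 3. Over all peaks tested 0.0104% passed in Stat6_KO against WT, 0% in Il21e_KO against WT and 0.0104% in Stat6_KO against Il21e_KO. The 5 peaks behind each of the nonzero shares lay between genes on chromosomes 11 and 12. The edgeR quasi-likelihood test, DESeq2 and limma-voom on the recovered reads also called 0 members. The median standard error of a tested member was 0.256 on the log2 scale.

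At an unadjusted p under 0.05, 6 members or 3.23% differed between Stat6_KO and WT, 2 higher and 4 lower, against 3.29% of all peaks tested. Between Il21e_KO and WT it was also 6 members or 3.23%, 2 higher and 4 lower, against 3.52%. Between Stat6_KO and Il21e_KO it was 12 members or 6.45%, 5 higher and 7 lower, against 5.68%. Members whose groups did not overlap numbered 25 or 13.4% for Stat6_KO against WT, where the share over all peaks tested was 13.2%. They numbered 9 or 4.84% for Il21e_KO against WT, where it was 7.28%, and 15 or 8.06% for Stat6_KO against Il21e_KO, where it was 11%. Of these 6 shares of the members, 2 were slightly above and 4 below the share over all peaks tested. The 2 comparisons with WT share the WT libraries, and each knockout enters 2 comparisons.

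The median log2 fold change of the 186 tested members was -0.0005 in Stat6_KO against WT, -0.011 in Il21e_KO against WT and 0.0125 in Stat6_KO against Il21e_KO. Over all peaks tested it was -0.0046, -0.028 and 0.037 in those comparisons. The interquartile range of the members ran from -0.16 to 0.16 in Stat6_KO against WT, from -0.19 to 0.14 in Il21e_KO against WT, and from -0.19 to 0.25 in Stat6_KO against Il21e_KO. The lowest and highest values of a member were -0.778 and 1.042 in Stat6_KO against WT and -1.131 and 0.749 in Il21e_KO against WT. In Stat6_KO against Il21e_KO they were -0.99 and 1.118. The plot of log2 fold change against distance shows members above and below zero at each distance where they are dense.

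**Figure D4:**
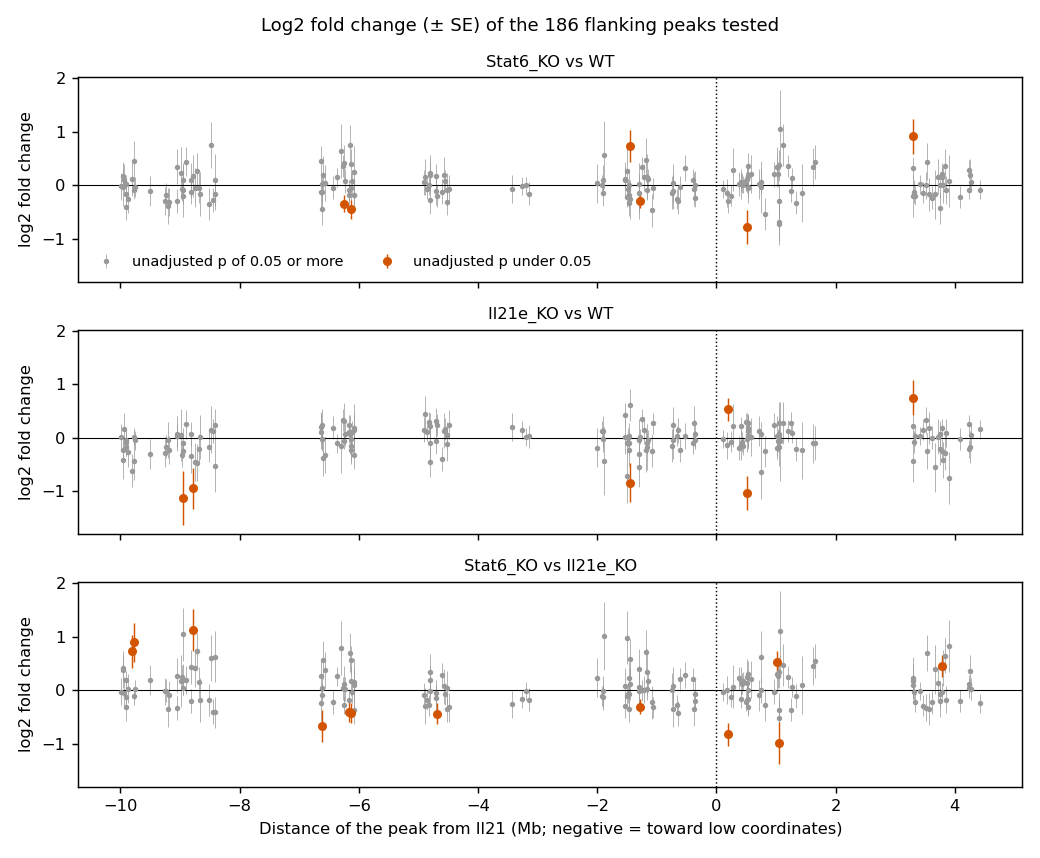
Log2 fold change with its standard error (vertical axis) of the 186 tested members against distance from Il21 in Mb (horizontal axis), with a panel for each comparison and orange points for an unadjusted p under 0.05. The orange points, 6 in Stat6_KO against WT, 6 in Il21e_KO against WT and 12 in Stat6_KO against Il21e_KO, are scattered over both sides, and none passed FDR 0.05.

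In Il21e_KO against WT, the member with the lowest p was an intergenic peak at chr3:37637184-37637758, 505.6 kb from Il21 and 13.9 kb from the nearest start, that of the predicted gene Gm5148. It had 2.86, 6.30 and 6.66 CPM in Il21e_KO, against 10.4, 12.46 and 10.96 CPM in WT. All Il21e_KO libraries were below all WT libraries. The log2 fold change was -1.03 ± 0.32 (SE, unadjusted p = 0.00518, adjusted p = 0.9998 by limma-trend). Without Il21e_KO library 1, which had 3 reads there, it was -0.71. Stat6_KO, with 5.68, 8.24 and 4.89 CPM, was also below WT, at -0.78 ± 0.32. As both comparisons use the same WT libraries, they are not independent.

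Of the members higher in Il21e_KO than in WT, the lowest p belonged to the TSS peak of Nudt6 at chr3:37317876-37320013, 186.3 kb from Il21, whose promoter is printed above. Its values were 73.4, 41.6 and 42.2 CPM in Il21e_KO, against 37.3, 39.7 and 28.4 CPM in WT. The groups did not overlap, and Il21e_KO library 1 was far above the others. The log2 fold change was 0.53 ± 0.22 (SE, unadjusted p = 0.0282, adjusted p = 1.0 by limma-trend), and 0.26 without that library (unadjusted p = 0.13). In Stat6_KO the peak had 22.7, 33.6 and 28.75 CPM. Set against Il21e_KO, this gave the lowest p of any member in any comparison, with a log2 fold change of -0.83 ± 0.22 (SE, unadjusted p = 0.00147, adjusted p = 0.78 by limma-trend), and -0.56 without Il21e_KO library 1. That library also had the highest share of reads at start sites, and the part of this share in the value of the peak was not tested.

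The other members among the 5 lowest p that were lower in Il21e_KO than in WT lay within genes on the low side. A peak in intron 2 of Tnik at chr3:28346824-28347402 had 1.91, 2.52 and 4.99 CPM in Il21e_KO, against 6.73, 9.34 and 4.51 CPM in WT (log2 fold change -0.95 ± 0.39, unadjusted p = 0.025). It had 2, 4 and 9 reads in Il21e_KO, and its log2 fold change was -0.73 without Il21e_KO library 1. Stat6_KO had 8.52, 8.24 and 6.12 CPM there, all above Il21e_KO, with a log2 fold change of 1.12 ± 0.39 against it (unadjusted p = 0.01, adjusted p = 0.78 by limma-trend). The TSS peak of Tnik had 91.5, 74.4 and 61.6 CPM in Il21e_KO and 94.2, 84.9 and 88.35 CPM in WT (log2 fold change -0.25 ± 0.14, unadjusted p = 0.0967). Another Tnik peak, in intron 1 at chr3:28170723-28171153, had a log2 fold change of -1.13 ± 0.50 between Il21e_KO and WT. However, it rested on 1, 2 and 12 reads in Il21e_KO. Its log2 fold change was -1.75 without Il21e_KO library 3 and -0.77 without Il21e_KO library 1 (the latter with unadjusted p = 0.0684 by limma-trend). In Atp11b, a phospholipid flippase, a peak in intron 1 at chr3:35663593-35664058 had -0.845 ± 0.37, and -0.37 without Il21e_KO library 1. In Fndc3b, a membrane protein with fibronectin domains, a peak in coding exon 26 had -0.62 ± 0.31, and -0.115 without that library.

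In Stat6_KO against WT, the member with the lowest p was an intergenic peak at chr3:40430289-40430975, 8.45 kb from the start of 1700017G19Rik. It had 9.66, 7.07 and 10.4 CPM in Stat6_KO, against 4.895, 2.34 and 6.45 CPM in WT. No Stat6_KO library was as low as any WT library. The log2 fold change was 0.91 ± 0.33 (SE, unadjusted p = 0.0127, adjusted p = 1.0 by limma-trend). Il21e_KO had 7.62, 8.19 and 7.77 CPM and was 0.75 ± 0.33 above the same WT libraries on the log2 scale. Without WT library 2 these log2 fold changes were 0.58 (unadjusted p = 0.0736) and 0.42 (unadjusted p = 0.188). A peak in intron 1 of Atp11b at chr3:35675588-35676464 had 17.6, 12.4 and 15.3 CPM in Stat6_KO and 9.79, 4.67 and 13.5 CPM in WT (log2 fold change 0.73 ± 0.30), with overlapping groups. Without WT library 2 its log2 fold change was 0.35 (unadjusted p = 0.207).

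Of the 5 lowest p among members lower in Stat6_KO than in WT, 3 belonged to start sites. Skil had 42.05, 40.04 and 37.3 CPM in Stat6_KO, 65.75, 44.7 and 53.3 CPM in Il21e_KO, and 60.6, 64.6 and 41.9 CPM in WT. The Stat6_KO values were narrow and WT library 3 came close to them, so Stat6_KO and WT overlapped slightly. The log2 fold change from WT was -0.45 ± 0.18 (SE, unadjusted p = 0.0219). Phc3 had 37.5, 43.6 and 41.6 CPM in Stat6_KO, against 50.2, 53.7 and 52.2 CPM in WT, which did not overlap (log2 fold change -0.34 ± 0.16, unadjusted p = 0.0471 by limma-trend). Dcun1d1 had 48.9, 54.2 and 50.2 CPM in Stat6_KO, against 63.0, 70.1 and 56.1 CPM in WT, without overlap (log2 fold change -0.295 ± 0.14, unadjusted p = 0.0475 by limma-trend). Each had an adjusted p of 1.0 by limma-trend. Without WT library 2 the log2 fold changes of Skil, Phc3 and Dcun1d1 were -0.335, -0.32 and -0.217. Their unadjusted p by limma-trend were then 0.118, 0.109 and 0.182.

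Start sites as a class leaned the same way across the genome. Of the 51 tested TSS members, 39 or 76.5% had a negative log2 fold change in Stat6_KO against WT, with a median of -0.12, against 67.1% of all 11905 tested TSS peaks, with a median of -0.081. The 135 other tested members had a median of 0.039, against 0.026 over all other peaks tested. In Il21e_KO against WT the medians of TSS members and of all TSS peaks were 0.032 and 0.033. In Stat6_KO against Il21e_KO they were -0.18 and -0.12. The TSS share of reads in each library moved with these values, and its part in them was not tested.

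Stat6_KO differed from Il21e_KO at unadjusted p under 0.05 in 7 members that were lower, with Nudt6 first, and 5 that were higher, with the Tnik intron 2 peak first. Skil (-0.43 ± 0.18) and Dcun1d1 (-0.31 ± 0.14) were lower in Stat6_KO than in Il21e_KO as well. Without Il21e_KO library 1, Skil was at -0.29 (unadjusted p = 0.0608 by limma-trend) and Dcun1d1 at -0.236 (unadjusted p = 0.0732 by limma-trend). Mynn, whose promoter is printed above, had 15.9, 14.1 and 23.2 CPM in Stat6_KO, against 55.3, 20.2 and 19.97 CPM in Il21e_KO and 23.25, 23.4 and 25.15 CPM in WT. Its difference from Il21e_KO of -0.67 ± 0.30 was -0.20 without Il21e_KO library 1. A peak in coding exon 21 of Fndc3b had 8.52, 7.65 and 7.95 CPM in Stat6_KO, against 2.86, 6.93 and 2.77 CPM in Il21e_KO, without overlap (log2 fold change 0.89 ± 0.36). Every one of these had an adjusted p of 0.78 by limma-trend.

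**Figure D5:**
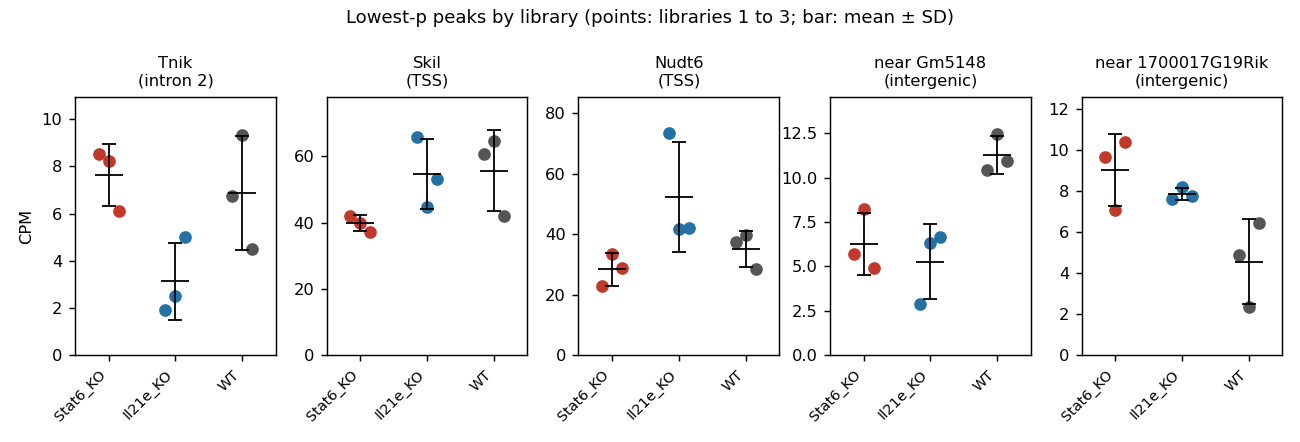
CPM (vertical axis, from 0) of the 5 members that had the lowest p in 1 direction of a comparison, with points for libraries 1 to 3 of Stat6_KO, Il21e_KO and WT and a bar at the mean ± SD. At Nudt6 a single Il21e_KO library stands at 73.4 CPM with the other two at 41.6 and 42.2 CPM, and at the peak near Gm5148 the WT libraries, at 10.4, 12.46 and 10.96 CPM, stand above both knockouts.

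The genes of the flank were also read by role, in 6 lists with 61 genes, of which 46 had a member and 42 a tested member at their start or, failing that, elsewhere. No list had a member past FDR 0.05 by limma-trend. Among the 6 tested neighbours of the cytokine pair, the median log2 fold change was -0.15 in Stat6_KO against WT, 0.099 in Il21e_KO against WT and -0.18 in Stat6_KO against Il21e_KO. Fgf2, the nearest tested member on the high side at 115.4 kb, had 40.35, 42.4 and 40.4 CPM in Stat6_KO, 33.35, 44.7 and 49.9 CPM in Il21e_KO, and 40.4, 48.3 and 40.6 CPM in WT. All 3 groups overlapped there, with a log2 fold change of -0.065 ± 0.17 for Stat6_KO and -0.028 ± 0.17 for Il21e_KO against WT. Spry1, an inhibitor of receptor tyrosine kinase signalling, had 26.1, 26.5 and 29.97 CPM in Stat6_KO, 31.4, 28.99 and 32.7 CPM in Il21e_KO, and 27.5, 26.5 and 25.15 CPM in WT. The Il21e_KO values of Spry1 were above those of WT without overlap, at 0.23 ± 0.16 and unadjusted p = 0.185. The start of 4932438A13Rik had 56.8, 76.5 and 70.3 CPM in Stat6_KO, 99.1, 64.3 and 72.7 CPM in Il21e_KO, and 85.7, 91.9 and 64.5 CPM in WT, which overlapped.

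In growth signalling and cell division, 10 of 12 genes were tested, with medians of -0.0945 in Stat6_KO against WT, 0.022 in Il21e_KO against WT and -0.1025 in Stat6_KO against Il21e_KO. Ccna2, the cyclin A2 gene of S phase and mitosis, had 19.9, 17.1 and 18.35 CPM in Stat6_KO, 40.02, 19.5 and 20.5 CPM in Il21e_KO, and 22.6, 23.4 and 22.6 CPM in WT. All Stat6_KO values were below all WT values, at -0.30 ± 0.23 (unadjusted p = 0.216). Tnfsf10, which encodes the death ligand TRAIL, had 34.7, 40.04 and 39.15 CPM in Stat6_KO, 33.35, 27.7 and 39.4 CPM in Il21e_KO, and 31.8, 41.3 and 39.98 CPM in WT. Its groups overlapped in every comparison. Gnb4, a G protein beta subunit, was lower in Il21e_KO, at -0.40 ± 0.23 against WT (unadjusted p = 0.0965).

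In transcription and chromatin, 5 of 7 genes were tested and all 5 were negative in Stat6_KO against WT, from -0.44 to -0.093 with a median of -0.31. The smallest in size, Phf17 (also named Jade1), turned to 0.012 without WT library 2. They were Mynn, Phc3, Actl6a, a subunit of SWI/SNF remodelling complexes, Phf17, a histone acetylation scaffold, and Zfp639, a zinc finger gene. Against WT, Il21e_KO had a median of -0.06 over the same 5. In RNA, translation and protein folding, 10 of 11 genes were tested, with medians of -0.16 in Stat6_KO against WT, 0.0315 in Il21e_KO against WT and -0.26 in Stat6_KO against Il21e_KO. Fxr1, an RNA-binding protein of the fragile X family, was the closest to no difference of these, at -0.005 in Stat6_KO and 0.008 in Il21e_KO against WT. These genes were measured at start sites, so the values stand beside the medians of all TSS peaks given above, -0.081 in Stat6_KO against WT and -0.12 in Stat6_KO against Il21e_KO.

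In mitochondria and metabolism, 5 of 8 genes were tested, with medians of -0.02, 0.01 and -0.03 in Stat6_KO against WT, Il21e_KO against WT and Stat6_KO against Il21e_KO. Mfn1, a GTPase of mitochondrial fusion, had 18.2, 18.25 and 16.5 CPM in Stat6_KO, 32.4, 21.4 and 20.5 CPM in Il21e_KO, and 22.6, 20.2 and 18.7 CPM in WT. Its Stat6_KO libraries were below all others, at -0.44 ± 0.20 against Il21e_KO (unadjusted p = 0.0445). A peak in intron 13 of Mccc1, of leucine breakdown, was higher in both knockouts than in the shared WT libraries, at 0.33 ± 0.195 in Stat6_KO and 0.34 ± 0.195 in Il21e_KO. In membrane, cilium and adhesion, 8 of 17 genes were tested, with medians of -0.078, -0.102 and 0.195 in those comparisons. Fat4 had 10.8, 11.8 and 7.34 CPM in Stat6_KO, 3.81, 8.19 and 8.32 CPM in Il21e_KO, and 5.51, 8.56 and 7.09 CPM in WT, with overlapping groups.

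No member with enough reads in WT was lost in either knockout. Of the 158 members with a WT mean of at least 10 reads, 0 had 3 reads or fewer in every Stat6_KO library and 0 in every Il21e_KO library. A choice by WT reads tends to lower the ratios to WT. The reverse choice, by knockout reads, was not made. Among these 158, the ratio of mean CPM to WT ran from 0.556 to 1.62 in Stat6_KO, with a median of 0.961, and 127 lay between 0.8 and 1.25. In Il21e_KO it ran from 0.4575 to 1.49, with a median of 1.001, and 129 lay between 0.8 and 1.25. The lowest ratio in Il21e_KO was at the intron 2 peak of Tnik, and the lowest in Stat6_KO at the peak near Gm5148. Members with no read in any library of a genotype numbered 0 in Stat6_KO, 3 in Il21e_KO and 5 in WT, and all of these had at most 5 reads in every other library. The same count over all listed peaks was not taken. By library, the share of all listed peaks without a read was 3.37% to 5.145% in Stat6_KO, 3.77% to 23.5% in Il21e_KO and 5.83% to 11.2% in WT.

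The share of members with a low unadjusted p was close to that of the rest of chromosome 3. On the rest of chromosome 3, 3.57% of the 2214 peaks tested had an unadjusted p under 0.05 in Stat6_KO against WT, 3.21% in Il21e_KO against WT and 5.375% in Stat6_KO against Il21e_KO, where the members had 3.23%, 3.23% and 6.45%. Around Stat6 on chromosome 10, the 423 tested peaks chosen by the same distances had 6.15%, 5.20% and 8.75%. Of the 22 tested peaks within 100 kb of Il21 or Il2, 1 passed that threshold in Stat6_KO against WT, 1 in Il21e_KO against WT and 0 in Stat6_KO against Il21e_KO, and 0 passed FDR 0.05 by limma-trend. These shares are given as descriptions, and their differences were not tested.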

How the data were processed

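Members and lists were chosen with earlier results of these data known. Libraries were made from 50000 cells each, tagmented with the Nextera enzyme, and sequenced as paired 75 bp reads, per the labels. The authors deposited 1 table of peaks on mm9 with CPM values per library. Per the submitters' processing notes, Bowtie 1.3.0, MACS2 2.0 and HOMER were used, with roles, peak merging and duplicate removal not given in the sources used here. Each column of CPM summed to 1000000 over the listed peaks, and values came in whole steps of a size particular to the library, within 0.01 read. The step was taken as 1 read. It is not proven by CPM alone.

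Peaks were filtered with filterByExpr (edgeR 4.0.16, minimum count 10, minimum total 15), which left 48287 of 115727. limma-trend (limma 3.58.1, R 4.3.3) was fitted to log2(CPM + 1) of all 9 libraries, with Benjamini-Hochberg adjustment over all peaks tested. The code was also run on simulated counts with known changes. Those counts lacked the uneven TSS shares of these libraries, so that run does not show how many true changes would be found here. Fold changes on the log2(CPM + 1) scale understate changes of low peaks. Alternatives were edgeR, DESeq2 1.42.0 and limma-voom on recovered reads, TMM scaling, other pseudocounts, no filter, fits of 2 groups, the replicate number as a block and each library left out. Named peaks were those past FDR 0.05, the 5 lowest p in each direction of each comparison, 1 member per listed gene, the 5 highest members and the nearest tested ones.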

Additional observations from a re-analysis of the deposited data

How the results depend on the processing

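No member passed FDR 0.05 in any comparison under any alternative. None of the peaks with the 5 lowest p in each direction of a comparison changed sign in any refit. There were 270 refits with another setting and 270 with 1 library left out. These peaks were picked by low p in the same data, and some of the refits leave their log2 fold change as it was by construction. The kept signs therefore lend these peaks no support. Of 42 members given for a listed gene, their level or their nearness to Il21, 16 turned sign at least once over these settings in Stat6_KO against WT, 31 in Il21e_KO against WT and 15 in Stat6_KO against Il21e_KO. Those that turned had log2 fold changes of up to 0.16, 0.31 and 0.32 in size. Counts of members at an unadjusted p under 0.05 moved more. For Stat6_KO against WT they were 1 with DESeq2, 40 of all 520 members without a filter and 15 with only the 2 groups in the fit, against 6. As shares of the members these were 0.538%, 7.69% and 8.065%. Over all peaks in the same fits the shares were 0.951%, 6.33% and 8.51%. For Il21e_KO against WT they were 2 with DESeq2, 3 with limma-voom, 29 without a filter and 2 with only the 2 groups, against 6. The shares of the members were 1.075%, 1.61%, 5.58% and 1.075%, where those over all peaks were 0.654%, 2.585%, 6.145% and 1.82%. For Stat6_KO against Il21e_KO they were 4 with DESeq2 and 49 without a filter, against 12. The shares of the members were 2.15% and 9.42%, where those over all peaks were 1.735% and 7.94%. Leaving out 1 library at a time gave 0 to 19, 4 to 13 and 5 to 29 in Stat6_KO against WT, Il21e_KO against WT and Stat6_KO against Il21e_KO. The shares of the members ran from 0% to 10.2%, 2.15% to 6.99% and 2.69% to 15.6%. Over all peaks tested they ran from 1.76% to 9.21%, 2.53% to 7.31% and 2.62% to 12.4%. Without Il21e_KO library 1 the counts were 19, 13 and 5. These were 10.2%, 6.99% and 2.69% of the members, where the shares over all peaks tested were 9.21%, 6.90% and 3.885%.

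The median log2 fold change for Stat6_KO against WT was -0.041 with TMM scaling and 0.074 without a filter. Over all peaks in the same fits it was -0.045 and 0.071. For Stat6_KO against Il21e_KO it was 0.162 without a filter, against 0.129 over all peaks. With edgeR, DESeq2, limma-voom and TMM scaling, the sign turned for Il21e_KO against WT, at 0.058, 0.070, 0.054 and 0.025. It also turned for Stat6_KO against Il21e_KO, at -0.041, -0.059, -0.034 and -0.065. Over all peaks the signs turned in the same fits. The summed flank turned sign for Stat6_KO minus WT with TMM scaling (-107.2 CPM) and over filtered members (-103.3 CPM), and ran from -10.5 to 44.1 CPM with 1 library left out. Means of log2(CPM + 1) turned Il21e_KO minus WT to -0.051 and Stat6_KO minus Il21e_KO to 0.18.

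By side and ring, log2 means gave for Stat6_KO minus WT 0.135 on the low side, 0.102 under 1 Mb and 0.0986 from 5 to 10 Mb. They gave for Il21e_KO minus WT -0.0303 on the low side, -0.0815 on the high side, -0.108 under 1 Mb, -0.0213 from 1 to 2.5 Mb and -0.0237 from 2.5 to 5 Mb. For Stat6_KO minus Il21e_KO they gave 0.166 on the low side, 0.21 under 1 Mb, 0.158 from 2.5 to 5 Mb and 0.15 from 5 to 10 Mb. TMM scaling gave -5.97 CPM on the high side and -32.6 CPM from 2.5 to 5 Mb for Stat6_KO minus WT, 5.81 CPM from 5 to 10 Mb for Il21e_KO minus WT, and -77.7 CPM on the high side and -24.6 CPM from 1 to 2.5 Mb for Stat6_KO minus Il21e_KO. Filtered members alone gave -0.468 CPM on the high side, -0.372 CPM from 1 to 2.5 Mb and -23.4 CPM from 2.5 to 5 Mb for Stat6_KO minus WT, and -57.7 CPM on the high side and -22.3 CPM from 1 to 2.5 Mb for Stat6_KO minus Il21e_KO. The cause of these turns was not tested.

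With 1 library left out, Stat6_KO minus WT ran from -22.5 to 6.11 CPM under 1 Mb and from -28.7 to 20.8 CPM from 2.5 to 5 Mb. Il21e_KO minus WT ran from -3.53 to 47.1 CPM on the low side, from -8.08 to 18.5 CPM under 1 Mb, from -8.21 to 51.2 CPM from 1 to 2.5 Mb and from -6.16 to 83.1 CPM from 2.5 to 5 Mb. Stat6_KO minus Il21e_KO ran from -11.5 to 24.1 CPM on the high side, from -8.41 to 51.0 CPM from 1 to 2.5 Mb, from -81.1 to 8.18 CPM from 2.5 to 5 Mb and from -27.3 to 15 CPM from 5 to 10 Mb.

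Whether the replicate numbers pair the libraries could not be settled with 3 libraries a genotype. Deviations of same-numbered libraries correlated between -0.186 and 0.249, and those of differently numbered libraries between -0.302 and 0.242. With the replicate number as a block, 5, 7 and 15 members had an unadjusted p under 0.05 in Stat6_KO against WT, Il21e_KO against WT and Stat6_KO against Il21e_KO. These were 2.69%, 3.76% and 8.065% of the members, where the shares over all peaks tested were 3.04%, 3.54% and 5.96%. In that fit 0 members passed FDR 0.05. Low counts limited the 334 members below the filter, which the main fit left out. They entered the sums, the log2 means, the counts of members without reads and the fit without a filter. Groups of 3 libraries were too small for a check of outlying values.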
